A study of Mus musculus with 4 samples.

Results

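Ionocytes are rare cells of the airway lining. The cells described here were taken from mouse trachea by a gate on 6 ionocyte genes: Foxi1, Cftr, Ascl3, Atp6v0d2, Atp6v1c2 and Stap1. A cell was a member where at least 300 genes were detected, at most 20% of its molecules were mitochondrial, and at least 3 of the 6 genes had 1 or more counted molecules (unique molecular identifiers, UMIs). The members were thus chosen by the measured counts of these 6 genes, so the levels of those genes in members are a description. The gate took 87 of 20359 filtered cells, or 0.427% (95% Clopper-Pearson interval 0.342 to 0.527). They are called ionocyte-gated cells, and the 20272 filtered cells outside the gate are called the other cells.

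The cells came from 3 mutant lines with primary ciliary dyskinesia and from wild-type mice, all on the 129S6/SvEvTac background and 5 to 8 months old. The bgh line carries a mutation in Spef2, the Cfap54gt/gt line has a gene-trapped Cfap54, and the nm1054 line lacks Cfap221. Each genotype was 1 single-cell 3' library from pooled tracheas, 5 for bgh and 6 for each of Cfap54gt/gt, nm1054 and wild-type. Pronase-released cells were plated for some hours so that fibroblasts attached, the dead ones were depleted, and 8500 went into each run, which aimed for 5000 or more. The deposited table numbers its libraries 1 to 4 and nothing used here ties a number to a genotype. Mutant and wild-type ionocytes were therefore not compared, and every value is given by library number.

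The ionocyte is known for high expression of CFTR, the chloride channel mutated in cystic fibrosis, and is specified by the forkhead transcription factor Foxi1. Like related cells of kidney and inner ear, it carries the vacuolar proton pump (V-ATPase), an enzyme of a cytosolic V1 sector that splits ATP and a membrane V0 sector that moves protons. Ion transporters in its basolateral membrane, potassium channels and cyclic AMP signalling, which opens CFTR, complete the machinery for moving salt and acid across the epithelium.

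The ionocyte-gated cells numbered 19, 25, 21 and 22 in libraries 1 to 4. These were 0.499% (0.301 to 0.778), 0.632% (0.409 to 0.932), 0.293% (0.182 to 0.448) and 0.404% (0.254 to 0.612) of the filtered cells of each library, and all 4 intervals overlapped. The intervals cover counting error only, since each genotype was 1 library. The libraries held 39658153 to 53491773 UMIs in 4202 to 7360 barcodes. No gated cell shared its barcode sequence with a cell of another library. Exactly 3 gate genes were found in 36 cells, 4 in 42 cells, 5 in 7 cells and 6 in 2 cells.

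The gated cells differed widely in their share of Scgb1a1, the main secretory protein of club cells. In 48 cells Scgb1a1 was under 1% of UMIs, with a median of 0.0842%, and in 39 cells it was at least 1%, with a median of 5.92% and a maximum of 26.7%. Only 4 cells lay between 0.5% and 2%. The highest share below the threshold was 0.914%, the next 0.305%, and the lowest above it 1.15%. The low-Scgb1a1 cells numbered 12, 11, 13 and 12 in libraries 1 to 4, and the high-Scgb1a1 cells 7, 14, 8 and 10. Of the high-Scgb1a1 cells, 13 held 10% or more Scgb1a1.

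Low-Scgb1a1 cells ranged in Scgb1a1 from 0.0435% to 0.180% in library 1 (median 0.0897%) and from 0.0203% to 0.914% in library 2 (median 0.0420%). In library 3 they ranged from 0.0246% to 0.305% (median 0.0778%) and in library 4 from 0.0445% to 0.207% (median 0.0926%). High-Scgb1a1 cells ranged from 2.02% to 25.4% in library 1 (median 6.91%) and from 1.15% to 26.7% in library 2 (median 8.95%). They ranged from 4.05% to 14.2% in library 3 (median 9.64%) and from 1.45% to 22.3% in library 4 (median 3.79%). The other cells had a median of 0.312%.

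**Figure D1:**
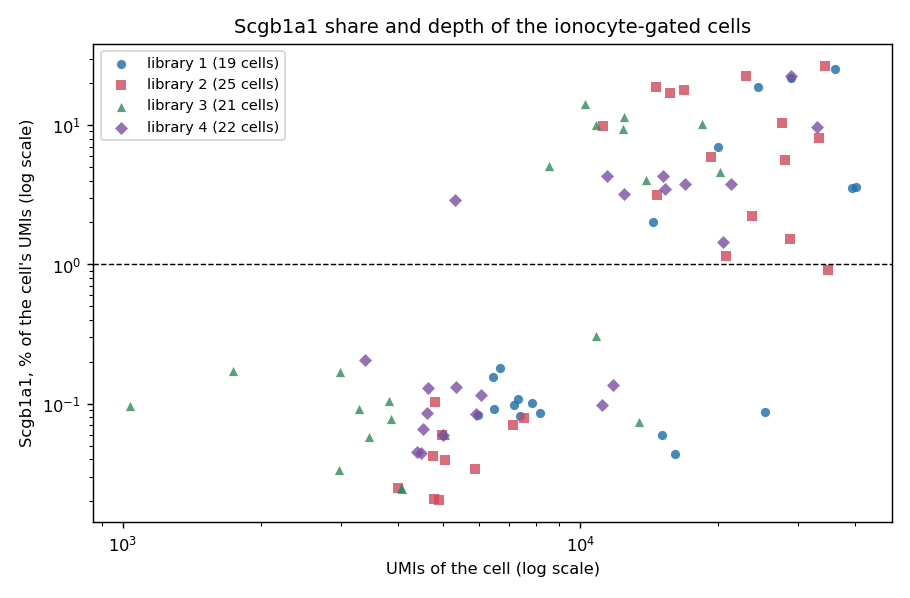
Each point is 1 of the 87 ionocyte-gated cells, with its UMIs on the x axis and the share of its UMIs from Scgb1a1 in percent on the y axis (both log scales), coloured by library. The dashed line is the 1% threshold, with 48 cells below it at a median of 5059.5 UMIs and 39 above it at a median of 19347 UMIs.

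Depth differed as well. Low-Scgb1a1 cells had a median of 5059.5 UMIs and 2100 genes, high-Scgb1a1 cells 19347 UMIs and 3859 genes, and the other cells 6699 UMIs and 1878 genes. High-Scgb1a1 cells thus held 70.2% of the UMIs of all gated cells. A doublet score marked 3 of the 48 low-Scgb1a1 cells, 3 of the 39 high-Scgb1a1 cells and 886 of all 20359 filtered cells (4.35%). Whether the high-Scgb1a1 cells were droplets with a secretory cell was not tested beyond that score. The number of molecules per cell varied by gene. Gnas had a median of 32 UMIs in high-Scgb1a1 and 34.5 in low-Scgb1a1 cells. Among cells with a UMI, Slc12a2 had a median of 5 UMIs in 37 of 39 high-Scgb1a1 cells and 4 UMIs in 45 of 48 low-Scgb1a1 cells. Smbd1 had 2 UMIs in 27 of 39 high-Scgb1a1 cells and 3 UMIs in 44 of 48 low-Scgb1a1 cells, and Kcnma1 1 UMI in 25 of 39 and 2 UMIs in 35 of 48. Umod had 2 UMIs in 11 of 39 high-Scgb1a1 cells and 12 UMIs in 15 of 48 low-Scgb1a1 cells. Genes are therefore given for all gated cells and, where it changes the picture, for the low-Scgb1a1 cells.

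Markers of other lineages were summed over each group and given per 1000000 UMIs of the group (CPM). The 8 secretory markers stood at 178748 CPM in all gated cells, 23397 CPM in the low-Scgb1a1 cells and 250762 CPM in the other cells. Within the low-Scgb1a1 cells they were uneven, at 5860, 41093, 51098 and 7371 CPM in libraries 1 to 4. The 9 tuft markers had 2 UMIs, the 8 neuroendocrine markers 4 UMIs and 7 of the 8 leukocyte markers 0 UMIs in the low-Scgb1a1 cells. The leukocyte marker that was present, Lyz2, is also made by epithelial cells. The 8 ciliated markers reached 1547 CPM (2684, 620, 231 and 1906 CPM in libraries 1 to 4) in the low-Scgb1a1 cells and 1580 CPM in the other cells. This RNA lay in few cells: 6 low-Scgb1a1 cells had 0.1% or more ciliated markers. A subset of 40 cells, chosen after these values were seen, also had Bpifa1 under 1%, ciliated markers under 0.1% and 5 basal or hillock keratins under 0.1%. Ciliated markers were at 64.3 CPM there. The secretory markers were at 5281, 4455, 5342 and 6320 CPM in libraries 1 to 4 of the subset. Bpifa1 is 1 of these 8 markers, so their fall was partly fixed by the choice. The 8 cells left out had 10809 to 34780 UMIs, while the highest of the 40 had 8158. The 40 cells held 202035 of the 340561 UMIs of the low-Scgb1a1 cells, so the 8 weigh heavily in every summed low-Scgb1a1 level.

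The gate genes themselves are given as a description, since they chose the cells. Summed over each library, Stap1, an adaptor of kinase signalling, stood at 706, 237, 578 and 762 CPM in gated cells of libraries 1 to 4, against 0.572, 1.36, 1.26 and 0.683 CPM in the other cells. Cftr stood at 192, 180, 238 and 155 CPM in gated cells, against 5.88, 7.63, 5.36 and 3.37 CPM in the other cells. Stap1 was lowest in library 2, whereas Cftr was lowest in library 4. Atp6v0d2, a V0 subunit, had 117 of its 124 UMIs in the 87 gated cells. Foxi1 had 26 of its 27 UMIs there, from 13 cells, and 10 of the 26 came from 1 cell. Ascl3, a transcription factor of the ionocyte lineage, had 23 UMIs from 19 cells. Atp6v1c2, a V1 subunit, was the least specific gate gene, with 179 of 7624 UMIs in gated cells.

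Each gate gene was also read in cells chosen without it, as those with 2 or more of the other 5. A cell of this kind that has the gene is itself a gated cell, so the molecules counted are those of the gated cells, over more cells. Cftr was then at 108 CPM (95% Poisson interval 94.4 to 124) in 141 chosen cells and at 5.48 CPM (5.15 to 5.84) in all remaining cells. Stap1 was at 67.7 CPM (62.4 to 73.3) in 455 chosen cells, against 1.01 CPM (0.868 to 1.17) elsewhere. Atp6v0d2 was at 12.3 CPM (10.2 to 14.8) in 488 chosen cells, against 0.0401 CPM (0.0161 to 0.0827). Atp6v1c2 was at 143 CPM (123 to 165) in 96 chosen cells, against 40.8 CPM (39.8 to 41.7). The transcription factors, at low counts, were higher as well, with Foxi1 at 2.73 CPM in 491 chosen cells against 0.00573 CPM, and Ascl3 at 2.52 CPM in 467 chosen cells against 0.280 CPM. These intervals treat molecules and not cells as the unit. The 6 genes are those of the gate, so the levels are a description and no test was made.

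Genes outside the gate were higher in the gated cells too. Since the gate chose the cells of the same contrast, the ratios describe those cells and no test was made. Across 14341 tested genes with 20 or more UMIs, 68 (0.474%) were higher in gated than in other cells by at least 1 log2 unit in each of the 4 libraries, with 10 CPM added to both levels. In the other direction 13 genes (0.0906%) were lower by as much in each library. Ratios below are these log2 values, as the median of the 4 libraries with its range. The 25 genes that lead by their smallest ratio were not gate genes and are described first by secreted and matrix products, then by transport and signalling, then by metabolism. Only the most selective are given per library.

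Umod encodes uromodulin, the main protein of urine, made in the thick ascending limb of the kidney. It stood at 192, 112, 238 and 520 CPM in gated cells of libraries 1 to 4, against 0, 0.0512, 0.0188 and 0.0427 CPM in the other cells. Of the 283 Umod UMIs in filtered cells 278 (98.2%) lay in the gated cells, which are 0.427% of the cells. They came from 15 of 48 low-Scgb1a1 and 11 of 39 high-Scgb1a1 cells, so most gated cells had no Umod UMI. Smbd1 had 149, 160, 358 and 234 CPM in gated cells, against 0, 0.179, 0.414 and 0 CPM in the other cells, which placed 88.8% of its 260 UMIs in gated cells. Coch, which encodes the inner-ear matrix protein cochlin, had 161, 132, 238 and 91.3 CPM in gated cells, against 0.0686, 0.333, 0.395 and 0.128 CPM in the other cells.

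For these genes the log2 ratio was 4.33 for Smbd1 (3.99 to 5.14), 4.48 for Umod (3.60 to 5.72) and 3.93 for Coch (3.32 to 4.58). The added 10 CPM set most of the denominator, so the ratios understate how far apart the raw levels are. Moxd1, a copper monooxygenase, followed at 2.96 (2.55 to 3.45) and Galnt13, which starts O-linked glycan chains, at 2.62 (2.496 to 2.71). Has1, a hyaluronan synthase, was at 2.42 (2.10 to 3.001), Col18a1, a basement membrane collagen, at 2.24 (1.72 to 2.78) and Pam, an enzyme that amidates secreted peptides, at 1.72 (1.55 to 2.11).

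**Figure D2:**
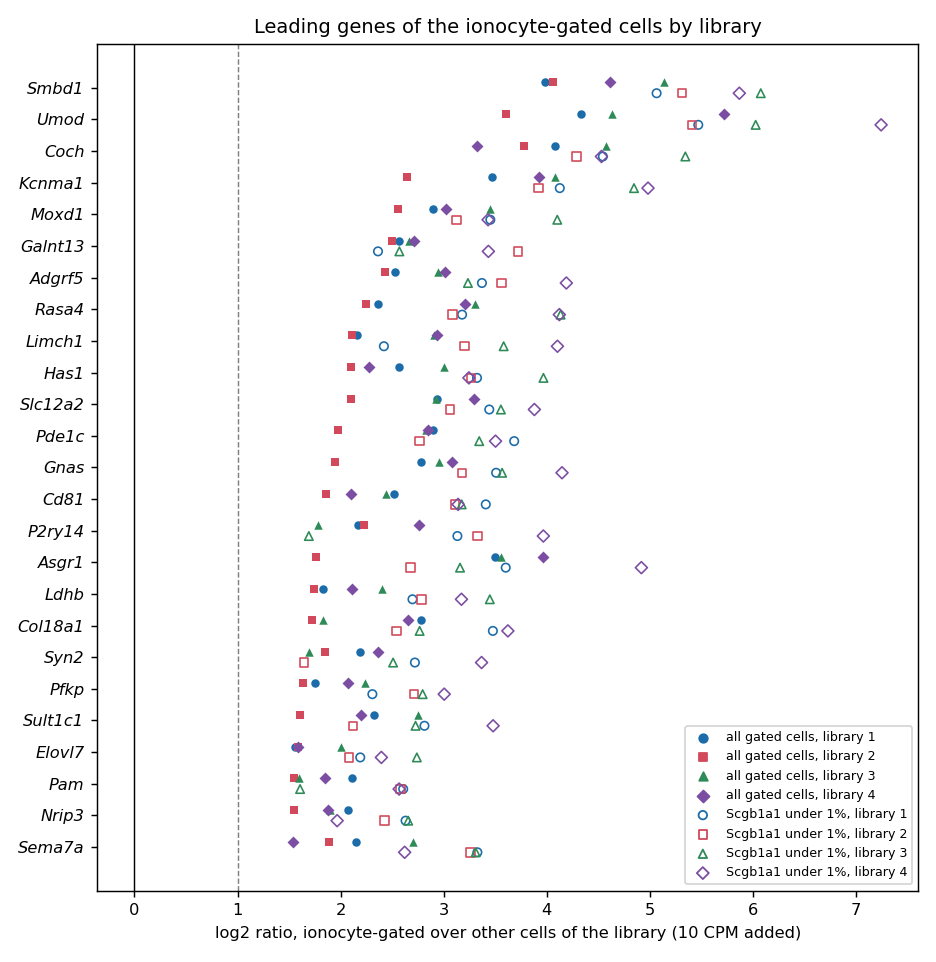
The log2 ratio of ionocyte-gated over other cells (x axis, 10 CPM added) is shown for the 25 leading genes, 1 row each, with filled symbols for all 87 gated cells and open symbols for the 48 with Scgb1a1 under 1%. Symbols mark libraries 1 to 4; every symbol lies right of the dashed line at 1, and the largest is Umod in library 4 at 7.25 for the low-Scgb1a1 cells.

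Transport genes among the leaders were Kcnma1 and Slc12a2. Kcnma1, the large-conductance potassium channel opened by calcium and voltage, stood at 102, 54.9, 161 and 143 CPM in gated cells, against 0.114, 0.358, 0.0941 and 0.0640 CPM in the other cells. The ratio was 3.70 (2.65 to 4.08), lowest in library 2. Slc12a2, the basolateral sodium-potassium-chloride cotransporter NKCC1, stood at 331, 279, 477 and 445 CPM in gated cells, against 34.6, 57.5, 54.0 and 36.4 CPM in the other cells, a ratio of 2.93 (2.10 to 3.29). Kcnma1 was thus close to restricted to the gated cells, with 81.4% of its UMIs there, while Slc12a2 was raised in them on a broad background, with 4.70%.

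Signalling genes among the leaders included several of G proteins and cyclic nucleotides. Gnas, the stimulatory G protein subunit that activates adenylyl cyclase, stood at 3311, 1797, 3458 and 3932 CPM in gated cells, against 474, 460, 436 and 455 CPM in the other cells, a ratio of 2.87 (1.94 to 3.08). Every gated cell had a Gnas UMI. Pde1c, which breaks down cyclic nucleotides when calcium rises, was at 2.84 (1.98 to 2.89). Adgrf5, an adhesion G protein-coupled receptor, was at 2.73 (2.43 to 3.01) and P2ry14, the receptor for UDP-glucose, at 2.20 (1.78 to 2.76). Rasa4, which turns off Ras, was at 2.79 (2.25 to 3.31), Limch1, an actomyosin regulator, at 2.54 (2.12 to 2.93), and Sema7a, a membrane-anchored semaphorin, at 2.02 (1.54 to 2.71). Asgr1, a receptor subunit best known from liver, was at 3.53 (1.76 to 3.96) and was lowest in library 2, as was Gnas.

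Metabolic leaders were Ldhb, a lactate dehydrogenase subunit, at 1.97 (1.74 to 2.40) and Pfkp, a phosphofructokinase of glycolysis, at 1.91 (1.63 to 2.24). Sult1c1, a sulfotransferase, was at 2.26 (1.61 to 2.75) and Elovl7, which lengthens fatty acids, at 1.58 (1.56 to 2.01). Cd81, a tetraspanin, Syn2, a synapsin, and Nrip3 completed the 25, at 2.27, 2.02 and 1.89. In the 48 low-Scgb1a1 cells all 25 were again at least 1 log2 unit above the other cells in each library. There 213 of 14341 genes (1.49%) were higher, and 70 (0.488%) were lower. Scgb1a1, whose share chose these cells, is among the 70, as are other secretory genes such as Bpifa1 and Scgb3a2. The lower count is thus partly fixed by the choice of cells. The higher genes shared 65 with all gated cells, which was 95.6% of the 68 and 30.5% of the 213. These 2 sets of gated cells share cells, so that overlap is a description.

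The genes furthest below the other cells included keratins of basal and squamous cells. Apoe had 3 UMIs in gated cells (0, 2.495, 5.96 and 3.97 CPM), against 192, 140, 131 and 249 CPM in the other cells, a ratio of -3.90 (-4.33 to -3.15). Krt5, the basal cell keratin, had 8 UMIs in gated cells and a ratio of -3.05 (-3.24 to -1.38). It did not pass in low-Scgb1a1 cells, where all 5 UMIs came from 1 cell of library 3. Calcb, Ifi202b and Krt16 were lower in all 4 libraries as well, at -2.79, -2.20 and -1.51. Serpinb2 at -2.75, Nrg1 at -1.30, Krt15 at -1.12, Ifitm1 at -0.84 and Ppa1 at -0.78 were below the other cells in each library but did not pass 1 log2 unit in all 4.

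How often the leading genes were detected together is given by the number of gate genes, as a description. The 6 genes used lead the ratio of gated over other cells, so being frequent inside the gate and rare outside it was fixed by their choice. Of these 6 (Umod, Smbd1, Coch, Kcnma1, Moxd1 and Galnt13), 2 or more were detected in 33 of 36 cells with 3 gate genes (91.7%, Clopper-Pearson 77.5 to 98.2). The same held for 37 of 42 cells with 4 gate genes (88.1%, 74.4 to 96.0), for 6 of 7 cells with 5 and for both cells with 6. Just outside the gate, 9 of 404 cells with 2 gate genes did so (2.23%, 1.02 to 4.19). The median depth was 14285.5 UMIs in cells with 3 gate genes and 18928 UMIs in cells with 2. Of cells with 1 gate gene 6 of 5632 did (0.107%), and with none 0 of 14236. The cells with 2 gate genes had a median Scgb1a1 share of 9.50%.

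**Figure D3:**
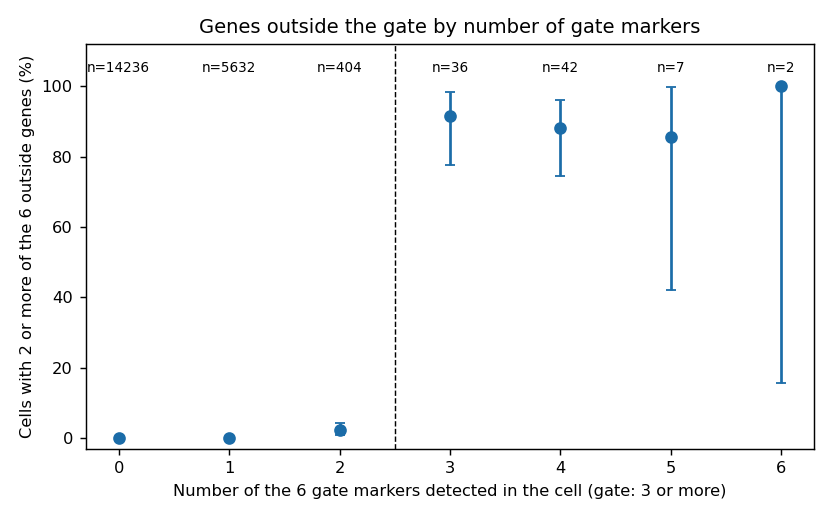
The share of cells with 2 or more of 6 genes outside the gate (y axis, percent; bars, 95% Clopper-Pearson interval) chosen for their gated over other ratio, is plotted by the number of the 6 gate genes detected (x axis), with the number of cells above each point. It is 2.23% at 2 gate genes and 91.7% at 3, on either side of the dashed line that marks the gate.

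Detection was also read at equal depth, with every cell thinned to 2000 UMIs, which left out 2 of 48 low-Scgb1a1 cells, none of the 39 high-Scgb1a1 cells and 2704 of the other cells. Stap1 was then seen in 80.4% of low-Scgb1a1 cells and 0.245% of the other cells, Cftr in 60.9% and 0.911%, Smbd1 in 58.7% and 0.0342%, Kcnma1 in 47.8% and 0.0398%, and Coch in 37.0% and 0.0398%. Stap1 and Cftr are gate genes, and Smbd1, Kcnma1 and Coch were named for leading this contrast. Thinning evens the depth and does not undo that choice, so these shares are a description. Without thinning, Smbd1 was seen in 44 of 48 low-Scgb1a1 cells and 0.0543% of the other cells. At 2000 UMIs low-Scgb1a1 cells had a median of 1077 genes, high-Scgb1a1 cells 884 and the other cells 886.

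Proton pump genes of both V-ATPase sectors were higher in the low-Scgb1a1 cells, while in all gated cells 1 gene passed. The 8 secretory markers took 23397 CPM in the low-Scgb1a1 cells and 250762 CPM in the other cells. This choice of cells alone raises the CPM of the remaining genes. Totals without these markers were used only for all gated cells, where again 1 gene passed, so the size of this part was not tested. Of 23 listed genes besides the 2 in the gate, 21 had enough UMIs. In all gated cells 1 of 21 passed in all 4 libraries, Atp6v1a, the catalytic V1 subunit, beside 0.474% of all genes. It stood at 223, 175, 244 and 258 CPM in gated cells, against 60.6, 68.4, 70.8 and 64.1 CPM in the other cells, a ratio of 1.69 (1.24 to 1.85). In low-Scgb1a1 cells 6 of 21 passed, beside 1.49% of all genes: Atp6v1a at 2.29, the V1 stalk subunit Atp6v1e1 at 2.13, Atp6v1f at 1.10, the V0 ring subunits Atp6v0b at 1.88 and Atp6v0c at 1.43, and the accessory subunit Atp6ap2 at 2.22. In the 40-cell subset 9 of 21 passed, beside 2% of all genes, and in high-Scgb1a1 cells 1 of 21, beside 0.139%. In the lower direction 492 genes (3.43%) passed in the 40-cell subset and 21 genes (0.146%) in high-Scgb1a1 cells. The 492 include all 8 ciliated and 7 of the 8 secretory markers. Shares of such markers chose the subset, so this count is partly fixed by the choice.

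The summed V1 genes stood at 2201, 1726, 1997 and 2621 CPM in low-Scgb1a1 cells of libraries 1 to 4, against 866, 852, 812 and 975 CPM in the other cells, which is 2.03-fold to 2.69-fold higher. The summed V0 and accessory genes stood at 3509, 3102, 3780 and 4625 CPM in low-Scgb1a1 cells, against 1199, 1310, 1191 and 1262 CPM in the other cells, or 2.37-fold to 3.67-fold higher. Tuft-gated cells (419 cells chosen by tuft markers) reached 1075 and 1476 CPM and neuroendocrine-gated cells (258 cells chosen likewise) 1120 and 1642 CPM for the same sums. Neither of these gates had a limit on Scgb1a1, and their secretory markers stood at 200141 and 231598 CPM. All 87 ionocyte-gated cells, also without that limit and with secretory markers at 178748 CPM, reached 1463 and 2336 CPM. Other subunits had no UMI in any gated cell: Atp6v0a4, Atp6v1g2 and Atp6v1e2. Atp6v0a4 is the kidney-type V0 subunit, and a count of 0 among the 1143457 UMIs of gated cells allows up to 3.23 CPM, against 0.345 CPM in the other cells, so a difference was not detectable at this depth.

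**Figure D4:**
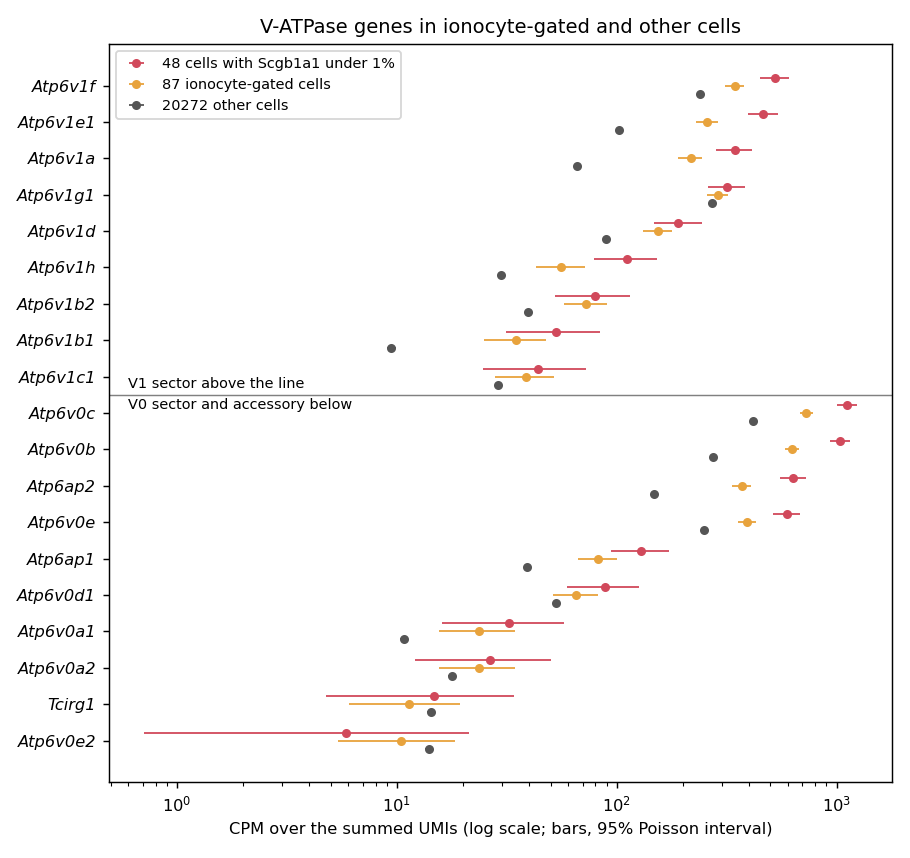
V-ATPase genes with 3 or more UMIs in gated cells are shown by CPM (x axis, log scale) in the 48 low-Scgb1a1 cells, all 87 gated cells and the other cells, from top to bottom within each row; bars are 95% Poisson intervals. In V1 genes such as Atp6v1a and V0 genes such as Atp6v0b the low-Scgb1a1 cells lie highest, while Atp6v1g1, Tcirg1 and Atp6v0e2 overlap the other cells.

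Atp6v1b1, the V1 subunit that marks acid-secreting cells of kidney and inner ear, was uneven. Low-Scgb1a1 cells had 3, 0, 6 and 9 UMIs in libraries 1 to 4, or 25.01, 0, 99.0 and 126 CPM, against 9.35, 7.84, 8.88 and 11.5 CPM in the other cells. The gene was not called, and the count of 0 in library 2 allows up to 41.6 CPM by the Poisson interval. The RefSeq promoter windows (GRCm38.p6, 250 bases before to 50 after the transcription start, matched by symbol) were searched for TGTTTAC and its reverse complement GTAAACA, which is the core recognised by forkhead factors. One or both were present in 3.65% of all 32851 windows and in at least 1 window of 4.05% of 27025 genes. Of 31 gate and leading genes 27 had a window and 3 held the motif, and of the 23 V-ATPase genes 18 had a window and 1 held it. The 3 were Limch1, Pde1c and P2ry14, which have 3, 3 and 4 windows, and the 1 was Atp6v1b1. More windows give more places for a match, so the share of all genes is not matched to these genes. A match is a description of the letters and not a bound site, and the counts were read from windows of another build than the deposited counts.

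Windows of 3 of these genes are printed 5′ to 3′ on the gene's strand, with the motif in capitals, to show where it lies. They are Pde1c (chr6:56369585-56369884, minus strand), with the motif beginning 79 bases before and again 14 bases after the start, P2ry14 (chr3:59131279-59131578, minus strand), with it beginning 2 bases after the start, and Atp6v1b1 (chr6:83742767-83743066, plus strand), with it beginning 98 bases before the start.
Pde1c: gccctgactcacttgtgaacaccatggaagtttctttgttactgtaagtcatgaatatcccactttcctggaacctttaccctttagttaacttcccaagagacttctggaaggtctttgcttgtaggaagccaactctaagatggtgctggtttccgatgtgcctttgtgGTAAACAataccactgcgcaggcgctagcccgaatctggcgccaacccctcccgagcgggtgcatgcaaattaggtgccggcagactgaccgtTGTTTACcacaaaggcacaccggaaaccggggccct
P2ry14: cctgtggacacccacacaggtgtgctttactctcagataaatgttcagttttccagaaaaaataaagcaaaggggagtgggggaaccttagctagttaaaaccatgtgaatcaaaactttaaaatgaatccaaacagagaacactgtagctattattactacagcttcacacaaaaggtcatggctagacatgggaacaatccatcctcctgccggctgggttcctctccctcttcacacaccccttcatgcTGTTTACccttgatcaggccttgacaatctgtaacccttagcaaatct
Atp6v1b1: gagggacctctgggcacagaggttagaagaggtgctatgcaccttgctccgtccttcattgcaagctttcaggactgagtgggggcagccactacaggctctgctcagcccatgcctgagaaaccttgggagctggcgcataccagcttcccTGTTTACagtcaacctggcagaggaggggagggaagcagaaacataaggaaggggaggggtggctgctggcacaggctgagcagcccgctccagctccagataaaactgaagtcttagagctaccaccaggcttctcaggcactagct

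Other known ionocyte genes, from a list of 20 of which 15 had enough UMIs, were higher in 7 cases in all gated cells, beside 0.474% of all genes, and in 8 cases in low-Scgb1a1 cells, beside 1.49%. Besides Smbd1, Coch, Moxd1, Asgr1 and P2ry14 these were Tfcp2l1, a transcription factor of ion-transporting cells, at 1.92 (1.39 to 2.09) and Hepacam2 at 2.24 (1.43 to 2.67) in all gated cells. Pparg joined them in low-Scgb1a1 cells, at 1.84 (1.49 to 2.63). Hepacam2 stood at 34.0, 24.95, 83.5 and 67.5 CPM in gated cells of libraries 1 to 4 and at 88.3 CPM in tuft-gated cells.

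Of 11 tested chloride and bicarbonate genes 1 was higher, Slc12a2, and of 17 tested sodium, potassium and water genes 1, Kcnma1, in all gated cells, beside 0.474% of all genes. The epithelial sodium channel subunit Scnn1b had 9, 0, 2 and 4 UMIs in low-Scgb1a1 cells of libraries 1 to 4, or 75.0, 0, 33.01 and 56.1 CPM, against 1.58, 0.922, 1.49 and 1.43 CPM in the other cells. It was higher in 3 libraries and not called, and the 0 in library 2 allows up to 41.6 CPM. Scnn1g had no UMI in gated cells. Anoctamin gene Ano1, the calcium-activated chloride channel, had 3 UMIs in low-Scgb1a1 cells and a ratio of -1.03 (-1.54 to 0.07). Carbonic anhydrases showed no call in 6 tested genes, beside 0.474% of all genes higher and 0.0906% lower in all gated cells, and Car2 and Car12 had 0 UMIs in gated cells, which allows up to 3.23 CPM, against 2.53 and 0.596 CPM in the other cells, so neither could be told from the other cells at this depth. The water channel Aqp5 stood at 41.7, 124, 1221 and 70.1 CPM in low-Scgb1a1 cells of libraries 1 to 4. In the other cells it stood at 371, 375, 492 and 798 CPM. The summed sodium, potassium and water genes stood at 4044 CPM in low-Scgb1a1 cells of library 3. The subset also chosen by Bpifa1, ciliated and keratin shares left out 2 of those cells. There the sum was 2561 CPM in library 3 and 2060 to 2806 CPM in the other libraries. Whether the high Aqp5 of library 3 came from the cells left out was not tested.

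Of 19 tested genes for CFTR trafficking and cyclic AMP, 1 was higher in all gated cells, Pde1c, beside 0.474% of all genes, and 2 in low-Scgb1a1 cells, where Adcy5 joined it, beside 1.49%. Adcy5, an adenylyl cyclase, had 4, 4, 2 and 5 UMIs in low-Scgb1a1 cells of libraries 1 to 4, from 13 of 48 cells, 1 UMI in high-Scgb1a1 cells and 6 UMIs in the other cells. Protein kinase A subunits Prkaca and Prkacb were at 0.32 and 0.39 in low-Scgb1a1 cells, with ranges that reached down to 0.15 and -0.53. None of 16 tested Notch pathway genes passed in either direction in all gated cells, beside 0.474% of all genes higher and 0.0906% lower, or in low-Scgb1a1 cells, beside 1.49% and 0.488%. The respiratory chain list had a median ratio of 0.35 over 27 genes in all gated cells, where the median of all genes was -0.02, and of 0.71 in low-Scgb1a1 cells, where it was -0.03. The low secretory share of the low-Scgb1a1 cells raises this value too, by an amount that was not tested. Ppargc1a, the coactivator that drives mitochondrial gene expression, passed in both, at 226, 215, 209 and 222 CPM in gated cells, against 70.7, 63.5, 77.3 and 87 CPM in the other cells. Mitochondrial UMIs made up a median of 6.13% of low-Scgb1a1 cells and 4.48% of the other cells. The median was 5.79% in all gated, 5.76% in tuft-gated and 5.02% in neuroendocrine-gated cells. The summed respiratory chain genes stood at 7450 CPM in all gated cells and 7066 CPM in tuft-gated cells. They stood at 6020 CPM in neuroendocrine-gated and 5597 CPM in the other cells, so tuft-gated cells were close to the gated cells in both measures.

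Of 5 simple epithelial keratins, 1 passed in low-Scgb1a1 cells, beside 1.49% of all genes, and 1 had no UMI in any gated cell. Krt7 stood at 3168, 2899, 2888 and 3125 CPM in low-Scgb1a1 cells, against 1041, 1206, 812 and 894 CPM in the other cells, a ratio of 1.70 (1.26 to 1.82), and was the keratin that passed. Krt8 was at 1.11 (0.66 to 1.31) and Krt18 at 0.90 (0.46 to 1.08). Anxa1 was the 1 hillock-list gene of 6 to pass in low-Scgb1a1 cells, beside 1.49% of all genes, at 1.29 (1.10 to 1.58), while the hillock keratin Krt13 had its 19 UMIs there all in 1 cell of library 3. None of 17 stress and immediate early genes passed in all gated or low-Scgb1a1 cells, beside the same shares of all genes as the Notch list, and their summed level was 11029 CPM in low-Scgb1a1 cells and 11775 CPM in the other cells.

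The 48 low-Scgb1a1 cells were not alike in Umod. Only 15 of them had a Umod UMI, with 1 to 62 UMIs each and a median of 12, and the top 3 cells held 47.5% of the UMIs. They were found in every library, with 4, 5, 3 and 3 cells. By contrast 47 of 48 had Stap1, 44 of 48 Smbd1, 45 of 48 Slc12a2 and all 48 Gnas. All 15 lay in the 40-cell subset, where they had a median of 5344 UMIs, against 4637 in the 25 cells without Umod. Stap1 stood at 1440 CPM (95% Poisson interval 1194 to 1721) in cells with Umod, against 1491 CPM (1280 to 1728) in cells without, and Gnas at 8097 CPM (7498 to 8732), against 7499 CPM (7015 to 8009). Coch stood at 156 CPM (83.0 to 267) in cells with Umod and 447 CPM (335 to 584) in cells without. Sult1c1 stood at 24.0 CPM (2.91 to 86.7) in cells with Umod and 261 CPM (177 to 371) in cells without. The split was made on a measured gene and the intervals treat molecules and not cells as the unit, so no test was made.

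**Figure D5:**
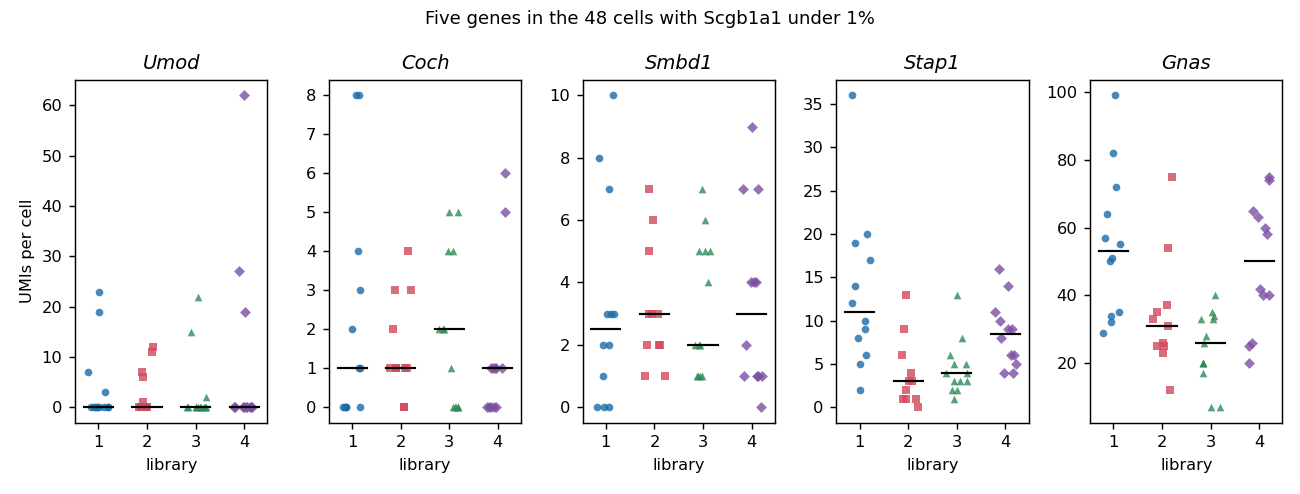
UMIs per cell (y axis) of Umod, Coch, Smbd1, Stap1 and Gnas are shown for the 48 low-Scgb1a1 cells by library (x axis), with 1 point per cell and a bar at the median. Umod is at 0 in 33 cells and reaches 62 UMIs in library 4, while Gnas is at 7 or more in every cell.

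Lyz1, a lysozyme gene, was also confined to some cells. It had 15 to 120 UMIs in 9 of 48 low-Scgb1a1 cells and none in the other 39, and 2 cells had both Lyz1 and Umod. Its close copy Lyz2 was present in 47 of 48, with a median of 62 UMIs among them. Reads of the 2 copies can be split by the counting, so both counts are uncertain. Lyz2 stood at 5835, 9329, 13319 and 13986 CPM in low-Scgb1a1 cells of libraries 1 to 4, against 1996, 4013, 4169 and 2431 CPM in the other cells.

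Between libraries, the level of some genes in low-Scgb1a1 cells differed beyond the counting error of molecules. Stap1 was at 1317 CPM in library 1 (1120 to 1539), 485 CPM in library 2 (351 to 653), 974 CPM in library 3 (741 to 1256) and 1429 CPM in library 4 (1166 to 1735), and the interval of library 2 met no other. Asgr1 was at 250 CPM in library 1 (169 to 357), 113 CPM in library 2 (54.1 to 207), 165 CPM in library 3 (79.1 to 304) and 757 CPM in library 4 (569 to 987), and the interval of library 4 met no other. Umod was highest in library 4 too, at 1514 CPM, of which 62 of 108 UMIs came from 1 cell. Cftr ranged from 283 to 462 CPM with overlapping intervals. These are 11 to 13 cells per library, and genotype, pool and preparation cannot be told apart as sources of these differences.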

How the data were processed

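The deposited matrix holds whole-number UMI counts per gene and cell barcode of all 4 libraries, which the authors made with Cell Ranger 6.0.1, per the file headers, on GRCm39, per the submitters' processing notes. The authors' cell filter is not given in the sources used here. Library numbers carry no genotype and each genotype is 1 library, so there is no replicate, no test between genotypes and no p-value.

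From the counts, 20359 of 21667 barcodes with at least 300 genes and at most 20% mitochondrial UMIs were kept. UMIs of gated and other cells were summed in each library and scaled to CPM over 22583 features, of which 4747 had no count. Genes with at least 20 UMIs over all filtered cells were compared as log2((CPM + 10)/(CPM + 10)), gated over other cells. The gate genes were left out of this count, and a gene was called where the ratio passed 1 in the same direction in each library. The 4 libraries are 4 readings of a gate and the call is a size rule, not a test. Counts from 3' ends allow no comparison of levels between genes, and overlapping genes or close copies can share reads.

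Named genes were the 6 gate genes, the 25 with the largest smallest ratio over libraries among genes with at least 20 UMIs in gated cells, the 10 with the lowest largest ratio among genes with at least 100 CPM in the other cells, and listed genes by role. Members and lists were chosen with earlier results of these data known. Of the lists, deuterosomal, proliferation, goblet, fibroblast and endothelial, and red cell markers had no gene higher in gated cells.

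A few listed genes are not reported here. Doublets were not removed. Scrublet scores (scanpy 1.11.5) marked the highest-scoring cells of each library, up to 0.8% per 1000 cells. Thinning drew 2000 UMIs per cell once, with seed 1. CPM values carry 95% exact Poisson intervals, shares carry Clopper-Pearson ones, and both cover counting error only. The 49 barcode sequences found in more than 1 library included no gated cell. Python 3.11.15, numpy 2.4.6, scipy 1.17.1, pandas 2.3.3 and matplotlib 3.10.9 were used, and the size rule was tested on simulated data. The alternatives varied the added CPM, the UMI filter, the gate, the doublets, the mixtures, the scaling, the weighting of cells and the libraries used.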

Additional observations from a re-analysis of the deposited data

How the results depend on the processing

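The count of 68 genes higher in gated cells became 41 with 20 CPM added, 141 as a mean over cells, 213 in low-Scgb1a1 cells and 287 in the 40-cell subset, an alternative chosen after seeing the data. The count of 13 lower genes became 20 and 6 with 5 and 20 CPM added, 23 without doublet-marked cells, 36 with 4 or more gate genes, 175 as a mean over cells, 70 in low-Scgb1a1 cells and 492 in the 40-cell subset. The 1 V-ATPase gene became 3 with 4 or more gate genes, 4 as a mean over cells, 6 in low-Scgb1a1 cells and 9 in the 40-cell subset. Leaving out 1 library gave 74 to 107 higher, 17 to 29 lower and 1 to 4 V-ATPase genes. Library 2 moved all 3 counts by over 1.5 times (107, 21 and 4 without it), and libraries 3 and 4 moved the lower count (29 and 20 without them). Dropping a library lets more genes pass by construction, and the cause of the other shifts was not tested.

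The gated share of 0.427% became 2.41% with 2 or more gate genes, 0.2505% with 4 or more, 0.236% in low-Scgb1a1 cells and 0.1965% in the 40-cell subset. Read in cells chosen without the gene itself, Foxi1 was at 2.73 CPM in place of 22.7, Cftr at 108 in place of 186, Ascl3 at 2.52 in place of 20.1, Atp6v0d2 at 12.3 in place of 102 and Stap1 at 67.7 in place of 535. No named gene reversed. Of 348 values for the 25 leading genes 345 kept the call, and Umod, Col18a1 and Nrip3 lost it with 4 or more gate genes. Part of this tally was fixed in advance. Leaving out a library cannot undo a call made in all 4, and the UMI filters leave the ratios as they were. Of 140 values for the 10 low genes all kept their direction, 124 kept the call as it was and 14 passed where the gene had not. Krt5 lost the call in low-Scgb1a1 cells and Krt16 with 4 or more gate genes. No paired analysis was possible because each genotype is 1 library. Depth limits the genes with few UMIs, Foxi1 and Ascl3 first.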

Other observations

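Some genes outside the rule for named genes also passed in all 4 libraries, and were chosen after their values were seen. Kit, a receptor tyrosine kinase, had 32 UMIs in gated cells and a log2 ratio of 1.30 (1.12 to 2.28), and its ligand gene Kitl was at 1.75 (1.33 to 2.66) in low-Scgb1a1 cells. Kit itself did not pass in low-Scgb1a1 cells, at 1.76 (0.67 to 2.14).

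Some potassium channel genes passed as higher in low-Scgb1a1 cells, beside 1.49% of all genes. They were picked from the genes that passed, and the potassium channel genes tested were not counted, so nothing is said of the family. These were Kcnk1 at 1.86 (1.52 to 2.10), Kcnk3 at 2.98 (1.39 to 3.51) from 28 UMIs and Kcnc4 at 2.15 (1.06 to 2.57) from 11 UMIs. Kcnk2 had 0 UMIs in those cells and passed the size rule as lower, at -1.36 (-1.41 to -1.27). A count of 0 in library 2 allows up to 41.6 CPM, so a lower level was not shown in that library. Over the 4 libraries the 0 UMIs were among 340561 UMIs of low-Scgb1a1 cells. The other cells had 2815 Kcnk2 UMIs among 182780763. Whether the pooled level was lower was not tested. In all gated cells Kcnk2 had 27 UMIs and a ratio of 0.05 (-0.25 to 0.95). The calcium release channel gene Itpr2 was at 2.92 (2.01 to 3.20) in low-Scgb1a1 cells. Entpd1, which breaks down extracellular ATP, had 29 UMIs in gated cells and 39 in the other cells, a ratio of 1.78 (1.42 to 2.34). The glucose transporter gene Slc2a1 was at 2.15 (1.53 to 2.47) and the glycolytic enzyme gene Eno1 at 1.85 (1.58 to 2.20) in low-Scgb1a1 cells. Hexa, which encodes a lysosomal enzyme subunit, was at 1.67 (1.16 to 1.84) in all gated cells.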
